A study of Homo sapiens with 6 samples.

Results

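The genes described here encode the proteins that license replication origins, open and copy the DNA in S phase, and control the passage from G1 into S phase. They were taken by symbol from a list of 52 genes of origin licensing, the replication fork and the G1/S transition. The list was chosen with earlier results of these data known. All 52 were found among the 58735 genes of the count table. RNA was sequenced from AsPC-1, an established human cell line from pancreatic cancer with the genotype label WT. The control cells (Vector, replicates labelled NC, n = 3) carried an empty lentivirus, and the other cells (OE-MMP28, n = 3) carried a lentivirus that overexpresses MMP28, a secreted matrix metalloproteinase. Per the methods the MMP28 vector also carries GFP and a puromycin resistance gene and gives a stable line, the promoter that drives it was not named, and how many infections made each group is not given in the sources used here. The comparison asks how the transcripts of the replication machinery differ between these 2 populations.

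In G1, the origin recognition complex together with CDC6 and CDT1 loads the MCM2-7 helicase onto DNA, a step called licensing. Geminin, encoded by GMNN, binds CDT1 in S phase and prevents an origin from being licensed again. At the onset of S phase CDC45 and the GINS complex join the helicase, primase and the DNA polymerases alpha, delta and epsilon start synthesis, and the clamp PCNA, placed on DNA by the RFC loader, holds the polymerases in place. Many of these genes are known targets of the E2F transcription factors, which are released from the retinoblastoma protein when cyclin E and its kinase become active late in G1.

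The 6 libraries held between 13633249 and 16691458 counts, and pairs of libraries within a group differed by more than sampling noise, so that none was a repeat of another. MMP28 was present at 5.17, 9.11 and 8.43 FPKM (fragments scaled to gene length and library size) in Vector replicates 1, 2 and 3 and at 13.1, 13.9 and 15.1 FPKM in OE-MMP28 replicates 1, 2 and 3, the order in which all levels are listed. It was higher by 0.90 on the log2 scale (SE 0.19, adjusted p = 0.00226, edgeR quasi-likelihood test with Benjamini-Hochberg adjustment), and the groups did not overlap (two-sided exact permutation test of the FPKM values, p = 0.1, the smallest that 3 against 3 libraries allow). Nothing in the labels says that the replicates were separate cultures, so all p-values measure the spread between these samples, which may be technical. The 7 ductal markers, led by the keratins KRT8 and KRT18, summed to 2593 to 3540 FPKM in the Vector and 3590 to 4386 FPKM in the OE-MMP28 libraries, and the part of this in the results was not tested. They were uneven, with KRT7 at 0.597 to 2.22 FPKM over the 6 libraries. MUC1 was at 13.0 to 19.7 FPKM in the Vector and 63.1 to 71.8 FPKM in the OE-MMP28 libraries, and EPCAM at 305 to 327 and 260 to 328 FPKM. The acinar, endocrine, leucocyte and endothelial markers summed to at most 0.242, 0.0815, 0.259 and 0.293 FPKM, and LUM at 33.8 to 56.9 FPKM made up nearly all of the sum of the 5 fibroblast markers. Mitochondrial genes took 11.9%, 14.5% and 14.8% of the counts in the Vector and 11.5%, 8.80% and 11.9% in the OE-MMP28 libraries. Without mitochondrial genes 27 of the 52 replication genes had an adjusted p under 0.05 and were higher, against 10.5% of all genes tested.

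All 52 replication genes passed the filter on low counts, from GINS3 with at least 60 counts in every library to MCM7 with up to 5674. At an adjusted p under 0.05, 28 of the 52 genes were higher in OE-MMP28 cells, against 11.7% of the 15319 genes tested. None of the 52 was lower, by edgeR at an adjusted p or an unadjusted p under 0.05 or by DESeq2 at an adjusted p, against 11.6% of all genes at an adjusted p. A positive log2 fold change was seen in 48 genes and a negative one in CDT1, GINS4, RFC1 and MCM10. The median log2 fold change was 0.54, or 1.46-fold, within a range of -0.19 to 1.15, where the median of all genes tested was 0.01. In 33 genes every OE-MMP28 library had a higher FPKM than every Vector library, and in none did the opposite hold, where 19% of all genes tested were separated upwards. An RNA level from bulk cells cannot tell a larger share of cells in S phase from more RNA per cell.

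**Figure D1:**
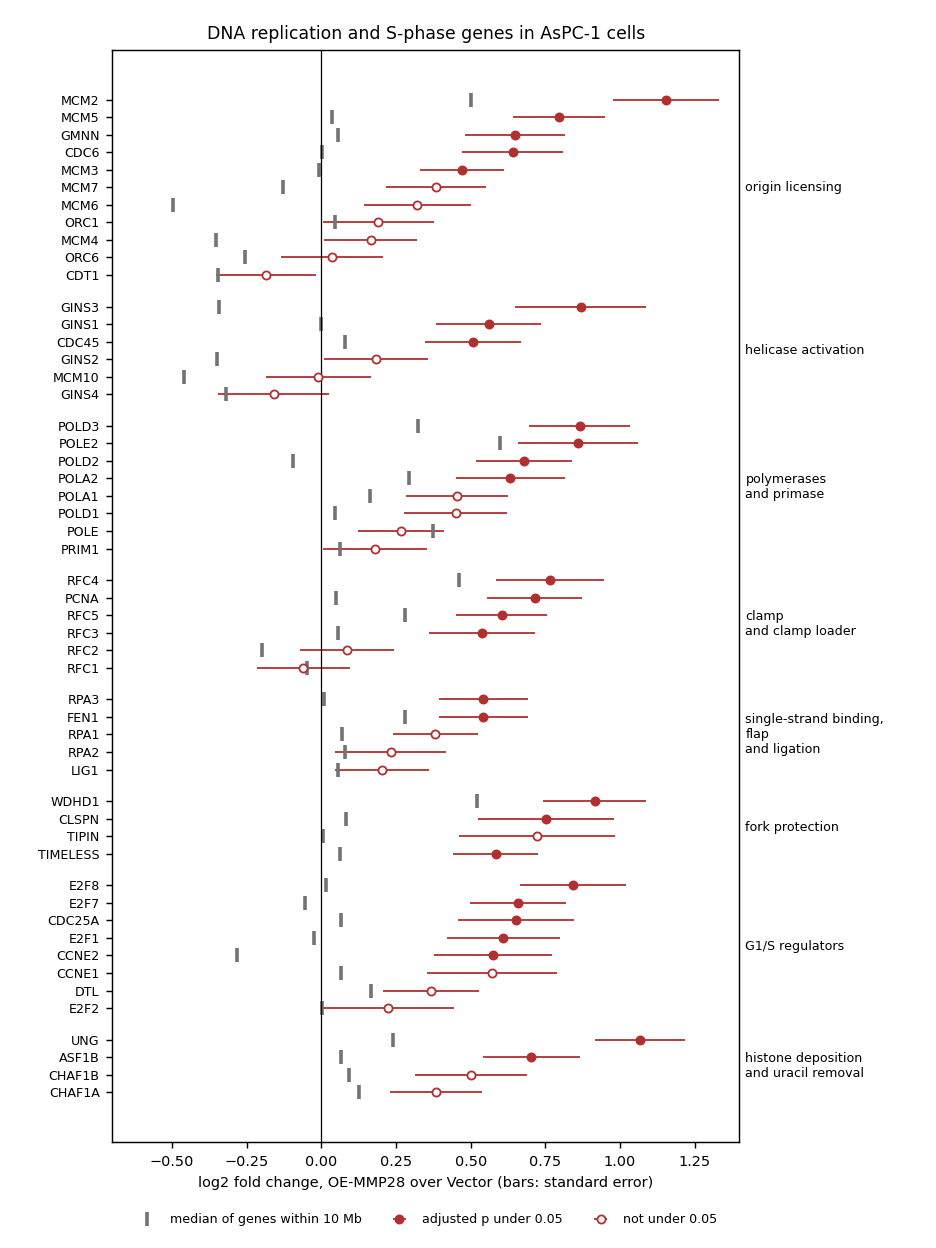
Log2 fold change of each replication gene, OE-MMP28 over Vector (x axis), with genes in rows by role. Circles are edgeR estimates from 3 against 3 libraries, bars are standard errors, filled circles have an adjusted p under 0.05, and grey ticks are the median of the genes within 10 Mb. MCM2 at 1.15 and UNG at 1.07 lie furthest to the right and CDT1 at -0.19 furthest to the left.

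The shares of the 52 genes in the total counts were 0.304%, 0.234% and 0.288% in the Vector and 0.374%, 0.386% and 0.379% in the OE-MMP28 libraries. Vector replicate 2 stood apart from the other control libraries. It had the lowest FPKM of the 6 libraries in 40 of the 52 genes, and the lowest of the Vector libraries in 43. The median of the 52 genes, as log2 CPM (counts scaled to library size) minus the mean of the Vector libraries, was 0.16, -0.25 and 0.08 in Vector replicates 1, 2 and 3. The OE-MMP28 replicates were close to one another on this measure at 0.51, 0.55 and 0.52. Without Vector replicate 2, 22 of the 52 genes were called higher, against 9.53% of all genes, and none lower, against 9.17%. The median log2 fold change was then 0.46. With 1 library left out the count was lowest without OE-MMP28 replicate 2, at 17 genes, and highest without Vector replicate 1, at 33. The shares of all genes called higher in these fits were 6.27% and 12.2%. OE-MMP28 replicate 1 had the highest value of the 6 libraries in 25 genes.

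**Figure D2:**
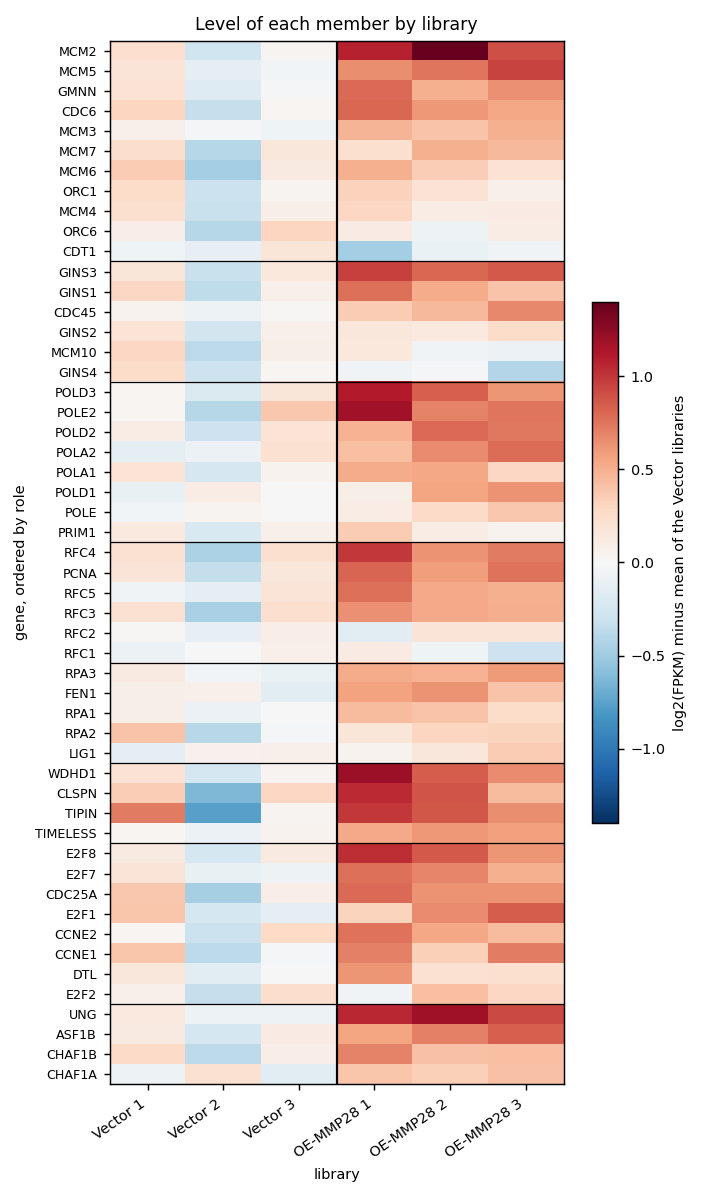
Level of each replication gene (rows, ordered by role) in each of the 6 libraries (columns), as log2 FPKM minus the mean of the Vector libraries. Red is above and blue below that mean. The column of Vector replicate 2 is mostly blue and the OE-MMP28 columns are mostly red, apart from CDT1, GINS4, MCM10, RFC1, RFC2, ORC6 and E2F2.

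Of the 52 genes, 44 had a promoter entry in RefSeq (GRCh38.p14, 250 bases before to 50 after each start, 53 windows). An E2F consensus, written out as TTTGGCGC, TTTCGCGC, TTTCCCGC or TTTGCCGC on either strand, where the strands' matches can overlap, stood in the windows of 24 of the 44 genes, or 54.5%. Among all 27305 genes with a window, tested here or not, the share was 3.99%. Many of the 52 genes are known E2F targets, so a higher share comes with the choice of genes and says nothing about these libraries. The CCAAT box, searched as CCAAT on both strands, was found for 65.9% of the 44 genes against 39.7% of all genes. The GC box GGGCGG was found for 79.5% against 48.3%. Of the 24 genes with an E2F match 14 were called higher, with a median log2 fold change of 0.58, and of the 20 without one 9 were called, with a median of 0.50. In MCM2 the matches lay just after the start, from 2 to 13 bases past the start base. The 100 bases before the start are printed 5′ to 3′ on the strand of the gene, with E2F matches in capitals, for genes that span these cases. They were chosen with their values known. PCNA (chr20:5126623-5126722, minus strand), GMNN (chr6:24775313-24775412, plus strand), CDC25A (chr3:48188418-48188517, minus strand), E2F1 (chr20:33686386-33686485, minus strand) and UNG (chr12:109098072-109098171, plus strand) held a match and were called higher. MCM6 (chr2:135876444-135876543, minus strand) and CDT1 (chr16:88803689-88803788, plus strand) held a match and were not called. WDHD1 (chr14:55027100-55027199, minus strand) was called and held none in its window.
PCNA: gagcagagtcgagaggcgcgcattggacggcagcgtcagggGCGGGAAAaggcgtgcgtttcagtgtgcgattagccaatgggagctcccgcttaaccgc
GMNN: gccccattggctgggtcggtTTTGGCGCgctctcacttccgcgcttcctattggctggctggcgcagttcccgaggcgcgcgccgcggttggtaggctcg
CDC25A: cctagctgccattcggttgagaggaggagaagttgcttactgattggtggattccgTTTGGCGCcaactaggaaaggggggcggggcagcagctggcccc
E2F1: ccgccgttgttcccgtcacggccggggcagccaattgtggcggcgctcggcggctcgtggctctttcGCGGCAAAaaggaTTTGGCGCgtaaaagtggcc
UNG: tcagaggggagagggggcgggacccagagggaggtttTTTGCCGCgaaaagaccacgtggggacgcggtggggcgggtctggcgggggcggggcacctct
MCM6: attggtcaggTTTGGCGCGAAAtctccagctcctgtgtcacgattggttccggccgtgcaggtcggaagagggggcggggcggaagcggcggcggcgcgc
CDT1: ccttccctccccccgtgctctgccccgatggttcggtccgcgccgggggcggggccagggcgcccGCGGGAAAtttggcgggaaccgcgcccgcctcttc
WDHD1: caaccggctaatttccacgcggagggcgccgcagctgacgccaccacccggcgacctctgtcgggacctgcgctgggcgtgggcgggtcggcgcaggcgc
In MCM6 the capitals are a forward and a reverse match that overlap, and in E2F1 a reverse and a forward match stand apart. PCNA and CDT1 share the reverse match GCGGGAAA, and GMNN, CDC25A, E2F1 and MCM6 share TTTGGCGC. A match describes letters in a window and not a bound site.

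Origin licensing held the gene with the largest difference of the 52 and the gene with the lowest. Of its 11 genes 5 were called higher (MCM2, MCM5, GMNN, CDC6 and MCM3), against 11.7% of all genes. None was lower, against 11.6%, and the median log2 fold change was 0.38. The role groups hold 4 to 11 genes each, too few for a count of none lower to stand out from that 11.6%. MCM2, a helicase subunit (ENSG00000073111, chromosome 3, bases 127598223 to 127622436 of GRCh38), was at 9.71, 6.81 and 8.46 FPKM in the Vector and 17.4, 22.5 and 15.3 FPKM in the OE-MMP28 libraries. Each OE-MMP28 library was above each Vector library, and the gene rose 2.23-fold (log2 1.15, SE 0.18, adjusted p = 0.000112). MCM5, a neighbour of MCM2 in the ring, was at 9.84, 7.87 and 8.45 against 13.7, 14.6 and 16.8 FPKM. It rose by 0.80 on the log2 scale (SE 0.15, adjusted p = 0.00104) without overlap. MCM3 was the least changed of the called subunits, at 34.2, 32.2 and 31.0 against 45.2, 42.9 and 45.9 FPKM (log2 0.47, adjusted p = 0.0195), also without overlap. The other 3 subunits were MCM7 (log2 0.38, adjusted p = 0.103), MCM6 (0.32, 0.207) and MCM4 (0.16, 0.481), none of which was called. Their 95% intervals were 0.04 to 0.73, -0.05 to 0.69 and -0.16 to 0.49, so a rise as large as that of MCM3 was inside each of them.

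CDC6, the ATPase that helps load the helicase, was at 9.12, 5.91 and 7.55 FPKM in the Vector and 12.9, 11.3 and 10.8 FPKM in the OE-MMP28 libraries. All 3 OE-MMP28 libraries lay above the Vector range, a rise of 0.64 on the log2 scale (SE 0.17, adjusted p = 0.00988). GMNN, the inhibitor of licensing, was at 10.5, 8.04 and 8.91 against 15.7, 12.8 and 14.2 FPKM. It rose by 0.65 (SE 0.17, adjusted p = 0.00811) and its groups did not overlap. CDT1, the loading factor that geminin holds back, was at 14.4, 13.8 and 16.8 against 10.7, 14.0 and 14.4 FPKM. Its groups overlapped, OE-MMP28 replicate 1 was the lowest library, and the log2 fold change of -0.19 was not called (adjusted p = 0.458, 95% interval -0.53 to 0.16). The origin recognition subunits ORC1 and ORC6 were at 0.19 and 0.04 (adjusted p = 0.497 and 0.909), with groups that overlapped. The call of MCM3 ended without Vector replicate 3 (0.116) or OE-MMP28 replicate 2 (0.0742), within a range of adjusted p of 0.00618 to 0.116 over its 19 alternatives. MCM6 and MCM7 reached an adjusted p of 0.0494 without Vector replicate 1 and 0.0414 without Vector replicate 1, within ranges of 0.00410 to 1.00 and 0.0414 to 0.761.

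**Figure D3:**
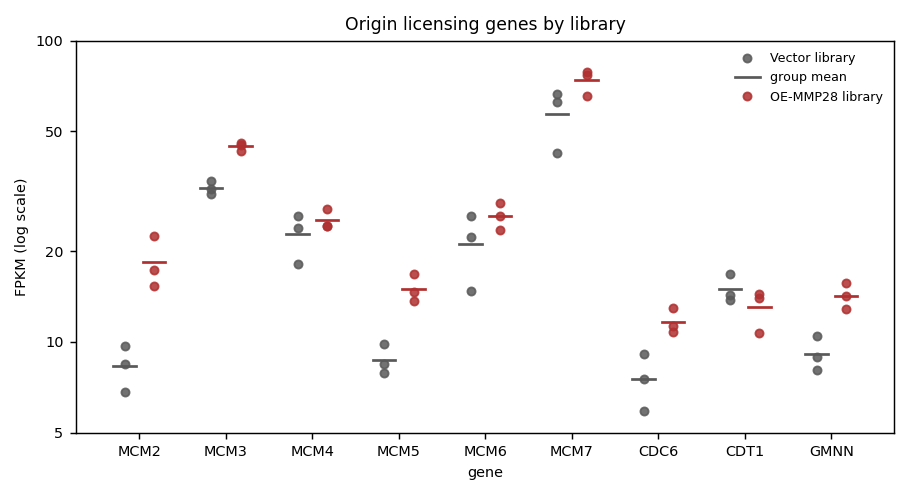
FPKM on a log scale (y axis) of the MCM2-7 subunits, CDC6, CDT1 and GMNN (x axis), with 1 point per library in grey for Vector and red for OE-MMP28 and a bar at the mean of each group. The points of the groups are apart for MCM2, MCM3, MCM5, CDC6 and GMNN and overlap for MCM4, MCM6, MCM7 and CDT1.

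The levels of the ring subunits lay closer together in OE-MMP28 cells. The highest of the 6 subunits, MCM7, was 6.83, 6.24 and 7.39 times the lowest in the Vector libraries and 4.81, 5.4 and 5.01 times in the OE-MMP28 libraries, as a ratio of FPKM. MCM2, one of the lowest subunits in Vector cells, made up 0.146, 0.160 and 0.135 of the MCM7 level there and 0.265, 0.284 and 0.20 in OE-MMP28 cells. The level of CDT1 over GMNN, the licensing factor over its inhibitor, was 1.37, 1.72 and 1.88 in the Vector and 0.681, 1.09 and 1.02 in the OE-MMP28 libraries. No library of one group fell within the range of the other in these 3 ratios. The first 2 are not separate, since MCM2 was the lowest subunit in Vector replicates 1 and 2 and OE-MMP28 replicate 3. All 3 ratios were chosen after the genes' values were seen and are given without a test. They are not adjusted for the regional differences described below.

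Helicase activation had 3 of its 6 genes called higher (GINS3, GINS1 and CDC45), against 11.7% of all genes, and none lower, against 11.6%. The median log2 fold change was 0.35. GINS3, a GINS subunit (ENSG00000181938, chromosome 16, bases 58295080 to 58406144), was at 1.22, 0.870 and 1.2 FPKM in the Vector libraries, the lowest mean level of the 52 genes there, and at 2.11, 1.89 and 1.97 FPKM in the OE-MMP28 libraries. Each OE-MMP28 library exceeded each Vector library, and the rise was 1.83-fold (log2 0.87, SE 0.22, adjusted p = 0.00706). Antisense transcripts over 10.9% of its exons had a count of 0. GINS1 was at 12.1, 7.77 and 10.5 against 17.0, 14.3 and 13.2 FPKM and rose by 0.56 (adjusted p = 0.0250). CDC45, which joins the MCM ring to GINS, was at 10.5, 9.67 and 10.3 against 13.0, 13.9 and 16.2 FPKM and rose by 0.51 (adjusted p = 0.0270). Both were free of overlap between the groups. GINS4, in the same complex of 4 as GINS1 and GINS3, was at 4.66, 3.19 and 3.97 against 3.75, 3.83 and 2.93 FPKM. OE-MMP28 replicate 3 was its lowest library, the groups overlapped, and the log2 fold change was -0.16 (adjusted p = 0.578, 95% interval -0.55 to 0.23). GINS3 over GINS4 as a ratio of FPKM was 0.261, 0.273 and 0.302 in the Vector and 0.561, 0.494 and 0.671 in the OE-MMP28 libraries, a pair chosen as the highest and lowest log2 fold change of this group and given without a test. GINS2 (0.18) and MCM10, a scaffold of the starting fork (-0.01), were not called. The call of CDC45 ended without Vector replicate 2 (0.0706), Vector replicate 3 (0.0904), OE-MMP28 replicate 2 (0.0921) or OE-MMP28 replicate 3 (0.105), within 0.0173 to 0.164 over its 19 alternatives. The call of GINS1 ended without Vector replicate 2 (0.115), Vector replicate 3 (0.0630), OE-MMP28 replicate 1 (0.0916) or OE-MMP28 replicate 2 (0.0810), within 0.00779 to 0.447.

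Polymerases and primase had 4 of 8 genes called higher (POLD3, POLE2, POLD2 and POLA2), against 11.7% of all genes, and none lower, against 11.6%. The median of the group was 0.54. POLD3, an accessory subunit of polymerase delta (ENSG00000077514, chromosome 11, bases 74493851 to 74669117), was at 6.00, 5.08 and 6.62 FPKM in the Vector and 12.6, 10.5 and 8.97 FPKM in the OE-MMP28 libraries. The groups were apart, with a rise of 1.82-fold (log2 0.87, SE 0.17, adjusted p = 0.00109). POLD2, another accessory subunit of delta, was at 33.7, 25.6 and 35.9 against 44.1, 54.4 and 52.6 FPKM and rose by 0.68 (adjusted p = 0.00470). POLE2, the second subunit of polymerase epsilon, was at 5.78, 4.28 and 7.35 against 12.8, 9.16 and 9.49 FPKM. Its rise of 0.86 (SE 0.20, adjusted p = 0.00413) was without overlap, as was that of POLD2. POLA2, the second subunit of polymerase alpha, was at 2.46, 2.53 and 3.12 against 3.60, 4.25 and 4.61 FPKM and rose by 0.63 (adjusted p = 0.0158), with the groups apart. Its exons shared 35.1% of their length with another annotated gene on the same strand, which had 8 to 33 counts. The 3 catalytic subunits were not called, with log2 fold changes of 0.45 for POLA1 (adjusted p = 0.0584), 0.45 for POLD1 (0.0636) and 0.27 for POLE (0.193). The called members of this group were thus all accessory subunits, although the difference between accessory and catalytic subunits was not itself tested. PRIM1, the catalytic primase subunit, had the lowest log2 fold change of the group and was at 9.07, 7.10 and 8.63 against 10.6, 8.85 and 8.54 FPKM, with overlapping groups (log2 0.18, adjusted p = 0.493). The call of POLA2 ended without OE-MMP28 replicate 2 (0.0779) or OE-MMP28 replicate 3 (0.0693), within 0.00905 to 0.222 over its 19 alternatives. POLA1 and POLD1 reached 0.0361 without Vector replicate 1 and 0.0133 without OE-MMP28 replicate 1, within 0.0361 to 0.362 and 0.0133 to 0.562.

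Among the clamp and its loader 4 of 6 genes were called higher (RFC4, PCNA, RFC5 and RFC3), against 11.7% of all genes. None was lower, against 11.6%, and the median was 0.57. PCNA (ENSG00000132646, chromosome 20, bases 5114953 to 5126626), the sliding clamp, had the highest level of the 52 genes at 132, 92.0 and 129.6 FPKM in the Vector and 204, 174 and 198 FPKM in the OE-MMP28 libraries. The groups did not overlap, and PCNA rose 1.64-fold (log2 0.71, SE 0.16, adjusted p = 0.00289). Its 3 annotated processed pseudogenes had a count of 0 in every library. RFC4, a small loader subunit, was at 16.0, 10.2 and 16.2 against 27.5, 21.4 and 22.9 FPKM and showed the largest rise of the group at 0.77 (SE 0.18, adjusted p = 0.00442). RFC5 was at 18.6, 17.5 and 21.7 against 32.6, 27.6 and 27.0 FPKM (log2 0.60, adjusted p = 0.00712). RFC3 was at 15.7, 9.94 and 16.0 against 21.1, 19.6 and 19.4 FPKM (log2 0.54, adjusted p = 0.0329). These 3 small subunits were each free of overlap. RFC2, the remaining small subunit, had a log2 fold change of 0.09 (95% interval -0.24 to 0.41, adjusted p = 0.738). RFC1, the large subunit, was at 8.44, 8.95 and 9.37 against 9.68, 8.54 and 7.29 FPKM, with OE-MMP28 replicates 1 and 3 as the highest and lowest libraries (log2 -0.06, adjusted p = 0.823, 95% interval -0.38 to 0.26). The call of RFC3 ended without Vector replicate 2 (0.167), OE-MMP28 replicate 1 (0.0777), OE-MMP28 replicate 2 (0.104) or OE-MMP28 replicate 3 (0.0681), within 0.0135 to 0.484 over its 19 alternatives.

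In the group of single-strand binding, flap removal and ligation 2 of 5 genes were called higher (RPA3 and FEN1), against 11.7% of all genes. None was lower, against 11.6%, and the median was 0.38. RPA3, the smallest subunit of the single-strand binding protein RPA (ENSG00000106399, chromosome 7, bases 7636518 to 7718607), was at 16.2, 14.5 and 14.0 FPKM in the Vector and 21.3, 20.8 and 22.5 FPKM in the OE-MMP28 libraries. It rose by 0.54 (SE 0.15, adjusted p = 0.0126) with the groups apart. FEN1, the nuclease that trims the flaps of lagging-strand fragments, was at 29.4, 29.3 and 25.1 against 41.2, 43.2 and 36.7 FPKM. It rose by 0.54 (SE 0.15, adjusted p = 0.0120), also without overlap. RPA1 (0.38, adjusted p = 0.0591) and RPA2 (0.23, adjusted p = 0.393) were not called. LIG1, which seals the fragments, was at 7.48, 8.63 and 8.69 against 8.52, 9.21 and 10.6 FPKM, and Vector replicates 2 and 3 lay above OE-MMP28 replicate 1 (log2 0.20, adjusted p = 0.375). The call of RPA3 ended without Vector replicate 3 (0.0848) or OE-MMP28 replicate 2 (0.0576), within 0.00359 to 0.0912 over its 19 alternatives. The call of FEN1 ended without Vector replicate 3 (0.0983) or OE-MMP28 replicate 2 (0.0960), within 0.00386 to 0.255.

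Fork protection had the highest median of the role groups, 0.74 over 4 genes. Of these 3 were called higher (WDHD1, CLSPN and TIMELESS), against 11.7% of all genes. WDHD1, the adaptor that links the helicase to polymerase alpha (ENSG00000198554, chromosome 14, bases 54938950 to 55027105), was at 6.00, 4.40 and 5.37 FPKM in the Vector and 12.0, 9.37 and 8.25 FPKM in the OE-MMP28 libraries. It rose 1.89-fold without overlap (log2 0.91, SE 0.17, adjusted p = 0.000853). CLSPN, which encodes the checkpoint mediator claspin, was at 2.99, 1.52 and 2.88 against 4.86, 4.32 and 3.21 FPKM. Vector replicate 2 was far below the other control libraries, and the rise was 0.75 (SE 0.23, adjusted p = 0.0211). TIMELESS, which travels with the fork, was at 17.4, 16.1 and 17.7 against 24.6, 26.0 and 25.4 FPKM. Its replicates lay close together in both groups and the rise of 0.58 (SE 0.14, adjusted p = 0.00550) held in all 19 alternatives. TIPIN, the partner of TIMELESS, had a log2 fold change of 0.72 with the widest standard error of the 52 genes (0.26, adjusted p = 0.0504). Without Vector replicate 1 TIPIN reached 0.000985, within 0.000985 to 0.687 over its 19 alternatives. The call of CLSPN ended without Vector replicate 2 (0.0896), OE-MMP28 replicate 1 (0.0966) or OE-MMP28 replicate 2 (0.0876), within 0.00302 to 0.571.

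Of the 8 G1/S regulators 5 were called higher (E2F8, E2F7, CDC25A, E2F1 and CCNE2), against 11.7% of all genes. None was lower, against 11.6%, and the median was 0.59. E2F1, the activating E2F factor, was at 19.2, 12.4 and 13.3 FPKM in the Vector and 18.3, 23.2 and 26.5 FPKM in the OE-MMP28 libraries. Vector replicate 1 lay above OE-MMP28 replicate 1, so E2F1 was the only called gene of the 52 whose groups overlapped (log2 0.61, SE 0.19, adjusted p = 0.0233). The atypical E2F factors, which repress E2F targets later in S phase, were higher without overlap. E2F8 (ENSG00000129173, chromosome 11, bases 19224063 to 19241620) was at 4.53, 3.50 and 4.56 against 8.51, 7.56 and 6.42 FPKM and rose 1.79-fold (log2 0.84, SE 0.18, adjusted p = 0.00192). E2F7 was at 5.17, 4.23 and 4.34 against 7.77, 7.31 and 6.45 FPKM and rose by 0.66 (SE 0.16, adjusted p = 0.00578). E2F2, a second activating factor, was at 1.69, 1.29 and 1.91 against 1.55, 2.15 and 1.97 FPKM, with overlapping groups and no call (log2 0.22, adjusted p = 0.496). CDC25A, the phosphatase that activates the kinase of cyclin E, was at 5.53, 3.09 and 4.53 against 7.39, 6.57 and 6.61 FPKM. It rose by 0.65 (SE 0.19, adjusted p = 0.0191) with the groups apart.

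CCNE2, one of the pair of cyclin E genes, was at 2.45, 1.95 and 2.92 FPKM in the Vector and 4.07, 3.50 and 3.28 FPKM in the OE-MMP28 libraries, without overlap. Its rise of 0.57 (SE 0.20) had the weakest adjusted p of the called genes, 0.0399. The exons of CCNE2 shared 37% of their length with INTS8 on the opposite strand, which had 1181 to 1565 counts, and whether the counting used strand is not given in the sources used here. CCNE1 had a log2 fold change of the same size, 0.57, with overlapping groups and no call (SE 0.22, adjusted p = 0.0626). It reached 0.0133 without Vector replicate 1, within 0.0133 to 0.539 over its 19 alternatives. DTL, a ligase adaptor that directs the destruction of CDT1, was at 0.37 (adjusted p = 0.106). The call of CCNE2 ended without Vector replicate 1 (0.0582), Vector replicate 2 (0.156), OE-MMP28 replicate 1 (0.114), OE-MMP28 replicate 2 (0.112) or OE-MMP28 replicate 3 (0.0563), within 0.00574 to 0.352 over its 19 alternatives. The call of E2F1 ended without Vector replicate 2 (0.0723), Vector replicate 3 (0.103), OE-MMP28 replicate 2 (0.0962) or OE-MMP28 replicate 3 (0.12), within 0.00270 to 0.501. The call of CDC25A ended without Vector replicate 2 (0.0957), OE-MMP28 replicate 1 (0.0569) or OE-MMP28 replicate 2 (0.0611), within 0.00305 to 0.398.

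Histone deposition and uracil removal had 2 of 4 genes called higher (UNG and ASF1B), against 11.7% of all genes. None was lower, against 11.6%, and the median was 0.60. UNG, the glycosylase that removes uracil from DNA (ENSG00000076248, chromosome 12, bases 109097574 to 109110992), was at 24.8, 21.4 and 21.5 FPKM in the Vector and 46.7, 51.3 and 42.7 FPKM in the OE-MMP28 libraries. The replicates of each group lay close together and far from the other group, a rise of 2.10-fold (log2 1.07, SE 0.15). Its adjusted p of 4.37e-05 was the smallest of the 52 genes, and UNG and TIMELESS were the only members called in all 19 alternatives. ASF1B, a histone chaperone, was at 19.5, 15.1 and 19.4 against 26.2, 29.1 and 31.9 FPKM and rose by 0.70 (SE 0.16, adjusted p = 0.00395) without overlap. CHAF1A, the large subunit of chromatin assembly factor 1, was at 11.5, 14.0 and 10.9 against 15.8, 15.2 and 16.0 FPKM. The groups did not overlap, and the log2 fold change of 0.38 was not called (adjusted p = 0.0780). CHAF1B, of the same factor, was at 0.50 (adjusted p = 0.0591). They reached 0.0400 without Vector replicate 2 and 0.0231 without Vector replicate 1, within 0.0400 to 0.317 and 0.0231 to 0.496 over their 19 alternatives.

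Part of the variation between the 52 genes went with their place in the genome. For each gene the median log2 fold change of the tested genes within 10 Mb on the same chromosome was taken. Across the 52 genes this local median and the gene's own log2 fold change had a Pearson r of 0.58, given as a description across genes of the same libraries. The local median was above 0.25 for 9 genes and below -0.25 for 9. It was 0.60 around POLE2, 0.52 around WDHD1, 0.50 around MCM2 and 0.46 around RFC4, and -0.50 around MCM6, -0.46 around MCM10 and -0.35 around MCM4. Above their local median lay 50 of the 52 genes, and the median distance from it over the 52 was 0.48. The share of all genes tested that lay above theirs was not computed. With the local median as an offset in edgeR, 23 of the 52 genes were higher and none lower, against 7.19% and 7.99% of all genes. MCM2 (log2 0.65, adjusted p = 0.0156), POLD3 (0.54, 0.0347) and PCNA (0.66, 0.00718) stayed above their surroundings.

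The offset ended 9 calls. They were those of WDHD1 (log2 0.39, adjusted p = 0.134), POLE2 (0.26, 0.417), RFC4 (0.31, 0.274), RFC5 (0.32, 0.162), FEN1 (0.26, 0.255), POLA2 (0.34, 0.222), CDC45 (0.43, 0.0781), RFC3 (0.48, 0.0720) and CLSPN (0.67, 0.0520). It added 4 genes: MCM6 (0.82, 0.00410), MCM4 (0.52, 0.0292), MCM7 (0.51, 0.0427) and GINS2 (0.53, 0.0430). With them, all 6 subunits of the MCM2-7 ring were higher than their surroundings. The ranges of adjusted p over the 19 alternatives were 1.04e-05 to 0.178 for WDHD1, 0.000210 to 0.417 for POLE2, 0.000277 to 0.309 for RFC4, 0.00193 to 0.164 for RFC5, 0.0292 to 1.00 for MCM4 and 0.0430 to 1.00 for GINS2. CDT1 and GINS4, below 0 without the offset, had log2 values of 0.16 and 0.16 with it. MCM2 and MCM7 were at 1.15 and 0.38 without the offset and at 0.65 and 0.51 with it, so their log2 values lay closer together. GMNN was at 0.65 without and 0.59 with the offset. The cause of the regional differences was not tested.

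Other genes of the same processes were compared by lists that do not share genes with the 52. These lists too were chosen with earlier results of these data known. Of 40 other replication genes 12 were called higher, none lower, with a median log2 fold change of 0.28, against the background of 11.7% of all genes higher. They included CHTF18, of an alternative clamp loader (7.08, 6.37 and 6.94 against 8.52, 13.2 and 15.6 FPKM, log2 0.89, adjusted p = 0.00228). SUPT16H and SSRP1, both subunits of the histone chaperone FACT, rose by 0.81 and 0.50 (adjusted p = 0.000706 and 0.0163). CDC7, the kinase that fires origins, rose by 0.63 (adjusted p = 0.0156), and CCNA2, the S-phase cyclin, by 0.53 (adjusted p = 0.0209). The rest were TOPBP1, POLE3, POLE4, RNASEH2C, UHRF1, DNMT1 and USP1. With the local offset 7 of the 40 genes were higher against 7.19% of all genes. It ended the calls of SUPT16H (log2 0.23, adjusted p = 0.328), SSRP1 (0.26, 0.233), TOPBP1 (0.15, 0.544), POLE3 (0.43, 0.0742), RNASEH2C (0.51, 0.0535) and USP1 (0.48, 0.0867). DBF4 (0.57, 0.0274), the partner of CDC7, named after its values were seen, was added. With 1 library left out at a time, calls were lost, with the highest adjusted p and the library behind it, for CDC7 (0.0651 without Vector replicate 2), CCNA2 (0.0852 without OE-MMP28 replicate 1), POLE3 (0.0864 without OE-MMP28 replicate 2), SSRP1 (0.0914 without OE-MMP28 replicate 2), DNMT1 (0.0570 without OE-MMP28 replicate 2) and USP1 (0.248 without OE-MMP28 replicate 1).

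The enzymes that supply nucleotides had 4 of 12 genes higher, against 11.7% of all genes, and 1 lower, which does not exceed the 11.6% of all genes, with a median of 0.31. TYMS, thymidylate synthase, was at 7.52, 6.47 and 7.72 against 10.6, 11.1 and 11 FPKM and rose by 0.60 (adjusted p = 0.0130). RRM1, the large subunit of ribonucleotide reductase, DUT, which removes dUTP, and CTPS1, which makes CTP, rose by 0.60, 0.60 and 0.79 (adjusted p = 0.0108, 0.00680 and 0.00667). RRM2B, the reductase subunit used outside S phase, was at 9.79, 9.02 and 8.41 against 6.50, 5.81 and 4.5 FPKM (log2 -0.69, adjusted p = 0.00551), lower in each OE-MMP28 library. With the local offset the call of RRM2B ended (log2 -0.46, adjusted p = 0.0680, range 0.000751 to 0.187 over its 19 alternatives), and RRM2 (0.74, 0.00647) and DTYMK (0.66, 0.00657), named after their values were seen, were called higher, so that 6 of the 12 genes were higher against 7.19% of all genes. Calls lost with 1 library left out, with the highest adjusted p, were those of RRM1 (0.0503 without OE-MMP28 replicate 2), TYMS (0.0715 without OE-MMP28 replicate 2) and DUT (0.0606 without OE-MMP28 replicate 2).

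Of 24 tested genes of G1 control 6 were higher, against 11.7% of all genes, and 4 lower, against 11.6%, with a median of 0.13. CCND1, cyclin D1, and its kinase CDK4 rose by 0.52 and 0.55 (adjusted p = 0.0207 and 0.0217). CDKN1B, the kinase inhibitor p27, was at 18.0, 28.6 and 22.7 against 15.2, 15.3 and 12.7 FPKM (log2 -0.67, adjusted p = 0.00859). SKP2, the ligase adaptor that directs the destruction of p27, rose by 0.50 (adjusted p = 0.0420). RBL2, the pocket protein p130, was at 9.12, 15.4 and 12.0 against 7.13, 6.51 and 5.89 FPKM (log2 -0.89, adjusted p = 0.00123), and E2F5, its repressor partner, had a log2 fold change of -0.73 (adjusted p = 0.0232). CDKN2B, the inhibitor p15, had one of -0.51 (adjusted p = 0.0151), while CDKN1A, the inhibitor p21, was higher by 0.66 (adjusted p = 0.0229). The E2F partners TFDP1 and TFDP2 were also higher (0.49 and 0.53, adjusted p = 0.0181 and 0.0247). The local median was 0.64 around TFDP2, and with the local offset its direction turned (log2 -0.11, adjusted p = 0.70, range 0.00270 to 0.70 over its 19 alternatives). The offset also ended the calls of CCND1 (log2 0.23, adjusted p = 0.355), CDK4 (0.47, 0.0598), SKP2 (0.49, 0.0605) and E2F5 (-0.42, 0.223). FBXW7 (-0.48, 0.0424), named after its values were seen, was called lower. With the offset 2 of the 24 genes were higher and 4 lower, against 7.19% and 7.99% of all genes. CDKN1B and RBL2 kept their calls whichever library was left out. The other 8 lost theirs, with the highest adjusted p given for CCND1 (0.105 without Vector replicate 3), CDK4 (0.165 without OE-MMP28 replicate 2), CDKN1A (0.132 without Vector replicate 3), CDKN2B (0.0805 without Vector replicate 3), E2F5 (0.136 without Vector replicate 3), TFDP1 (0.0849 without Vector replicate 3), TFDP2 (0.110 without OE-MMP28 replicate 2) and SKP2 (0.160 without OE-MMP28 replicate 1).

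Of 35 genes of mitosis 5 were higher and none lower, with a median of 0.16, a share of 14.3% against the 11.7% of all genes. They were DLGAP5 (log2 0.87, adjusted p = 0.000769), ECT2 (0.69, 0.00532), CDC20 (0.68, 0.00264), PLK1 (0.59, 0.00874) and CCNB1 (0.51, 0.0120). Among proliferation markers MKI67, TOP2A and CDK1, named after their values were seen, were not called, with log2 fold changes of -0.11, 0.19 and -0.25 (adjusted p = 0.606, 0.400 and 0.249). They do not stand for the list, in which 25 of the 35 genes had a positive and 10 a negative log2 fold change. With the local offset MKI67, in a region with a local median of -0.56, turned to 0.45 and was called higher (adjusted p = 0.0392, range 0.0392 to 1.00 over its 19 alternatives), CDK1 turned to 0.10 without a call (0.692) and TOP2A was at 0.19 (0.452). The median of the mitosis genes was 0.00, -0.17 and 0.15 in the Vector and 0.35, 0.12 and 0.11 in the OE-MMP28 libraries, as log2 CPM minus the mean of the Vector libraries, so that these groups overlapped where those of the 52 replication genes did not. In RefSeq promoters 3 of 28 mitosis genes, or 10.7%, held an E2F match and 23 of 28, or 82.1%, a CCAAT box. An E2F match was held by 9 of 33 other replication genes (27.3%), 3 of 10 nucleotide supply genes (30%) and 3 of 20 G1 control genes (15%). The call of CCNB1 (0.0570 without OE-MMP28 replicate 2) and that of PLK1 (0.0618 without OE-MMP28 replicate 2) ended with 1 library left out. With the offset for the local median 5 of the 35 genes were again higher, against 7.19% of all genes, but 2 of the 5, CDC20 and CCNB1, were shared with the test without it. DLGAP5 (log2 0.34, adjusted p = 0.164), ECT2 (0.20, 0.469) and PLK1 (0.32, 0.166) lost their calls, and MKI67, AURKA (0.46, 0.0463) and CENPA (0.70, 0.0250), named after their values were seen, gained one.

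**Figure D4:**
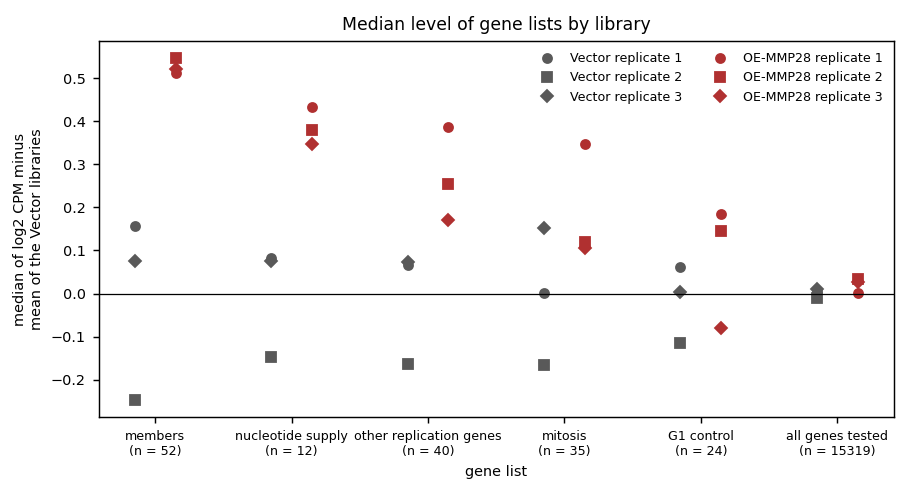
Median level of each gene list (x axis, with its number of genes) in each library, as log2 CPM minus the mean of the Vector libraries (y axis). Grey marks are Vector and red marks OE-MMP28 libraries, with a shape for each replicate number. The groups are furthest apart for the 52 replication genes, at most 0.16 in the Vector and at least 0.51 in the OE-MMP28 libraries, and they overlap for mitosis and for G1 control.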

How the data were processed

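The authors deposited 1 table for AsPC-1 cells, 3 Vector and 3 OE-MMP28 libraries, grouped here by their labels. The deposited counts are reads per gene and library that the authors counted and left unscaled and unpooled, in whole numbers. The authors also deposited FPKM values per library, scaled by gene length and library size. HISAT2 2.0.5 and featureCounts 1.5.0-p3 are named in the submitters' processing notes, and the settings for strand and for reads with several matches are not given in the sources used here. Columns with the authors' own fold changes, p-values and group means were not used, and 0 per-sample columns were left unmapped. All 58735 genes had the coordinates of GENCODE 29 on GRCh38.

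Counts were tested with edgeR 4.0.16 in R 4.3.3 (quasi-likelihood test, filterByExpr with min.count 10 and min.total.count 15, TMM scaling, group as the only term), with Benjamini-Hochberg adjustment over 15319 genes and a threshold of 0.05. The study names limma, but since the table held counts, limma 3.58.1 on FPKM was an alternative, as was DESeq2 1.42.0. Genes were called at an adjusted p under 0.05, and fold changes are OE-MMP28 over Vector. The edgeR step was run on simulated counts, with the spread taken from these libraries, as a check of the code and not of the calls here. Total counts of 13633249 to 16691458 set the limit of a count of 0, taken as 3 counts, at 0.180 to 0.220 CPM, a limit for counting error alone, since without molecular identifiers reads can be copies of 1 molecule.

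The 52 genes, the role groups, the lists and the motifs were chosen with earlier results of these data known. Levels in every library were given for called genes and for the highest and lowest gene of each role group, and other genes were summarised. Called genes of the other lists could be named. The alternatives, 19 in all, were other scalings, filters, tools and pseudocounts, counts without mitochondrial genes, protein-coding genes only, the replicate number as a block, an offset for the median of the genes within 10 Mb, and leaving out each library. No protein sequences were used.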

Additional observations from a re-analysis of the deposited data

How the results depend on the processing

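Of 988 values of the 52 genes under 19 alternatives, 868 kept their direction and their side of the threshold, 87 lost and 18 gained a call, and 15 changed sign. The count of genes higher, 28, was 27 to 29 under upper-quartile and DESeq2 scaling, without mitochondrial genes, without a filter on low counts, with at least 1 CPM in 3 libraries, with protein-coding genes only, by DESeq2 and by limma voom. The share of all genes called higher was 5.69% to 13.0% in those fits. The count was 21 by limma on log2(FPKM + 1) and on log2(FPKM + 0.1), against 6.63% and 6.57% of all genes. With the local offset it was 23, against 7.19%. When 1 library was left out it was 17 to 33 (17 without OE-MMP28 replicate 2, against 6.27%, and 33 without Vector replicate 1, against 12.2%). By limma on log2(FPKM + 1) without a filter, where 58735 genes were tested, the count was 2, against 0.160% of all genes. The log2 fold change of MMP28 was 0.84 in that fit (adjusted p = 0.246, against 4.08e-05 to 0.0319 under its other alternatives). No gene was called lower in any alternative. The median log2 fold change was 0.46 to 0.58 when 1 library was left out. CCNE2 was also lost under upper-quartile scaling, without mitochondrial genes and without the count filter, and GINS1, POLA2, RFC3, CLSPN, CCNE2, E2F1 and CDC25A by limma on log2(FPKM + 1).

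Values that changed sign were all without a call. ORC6 was at -0.0098 under upper-quartile scaling. MCM10 was at 0.010 by limma voom, 0.0027 by limma on log2(FPKM + 0.1), 0.011 with the replicate block and 0.45 with the local offset. With that offset CDT1 was at 0.16, GINS4 at 0.16 and POLE at -0.11. With 1 library left out ORC6 ranged from -0.14 to 0.20, MCM10 from -0.17 to 0.14 and RFC1 from -0.17 to 0.037. The causes were not tested.

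Pairing by replicate number was not established. Deviations of same-numbered libraries correlated at 0.017, 0.0080 and -0.088 across genes, which with 3 libraries a group cannot exclude shared cultures or days. The fit with the replicate block called 31 genes higher, against 12.0% of all genes, and none lower, with a median of 0.56. MMP28 had an adjusted p of 7.10e-05 in this edgeR fit. Vector replicate 2 correlated best with OE-MMP28 replicate 3 (0.155). With 3 libraries a group, standard errors of 0.14 to 0.26 on the log2 scale limited which differences could be resolved.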
